A study of Mustela putorius furo with 8 samples.

Results

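CFTR and 5 genes that work beside it in anion secretion by the pancreatic duct were followed in single-cell RNA libraries of ferret pancreatic ductal epithelial (PDE) cultures. The genes were chosen by their symbols: CFTR, SLC26A6, ANO1, SLC4A4, SLC12A2 and CA2. All 6 were present among the 27912 genes of the count matrices. Each passed the minimum of 30 unique molecular identifiers (UMIs, 1 for each captured RNA molecule) over all retained cells, which 15921 genes met. The values come from 32945 retained cells of 44243 deposited barcodes.

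Ductal cells of newborn ferrets had been passaged repeatedly and then polarized at an air-liquid interface (ALI), where differentiating duct epithelium faces air on its upper side. The wild-type (WT) cultures were compared with cultures labelled as homozygous for a CFTR knockout (CF), a line made earlier by nuclear transfer from gene-targeted fibroblasts. Cells were taken at day 2, 5, 7 and 9 at the interface, which gave 8 libraries, 1 for each genotype and day. Donors of each genotype were pooled, and PDX1 expression differed between the WT and the CF donors used. No cell was assigned to a donor here. With 1 library per group there was no replicate and no test was run, and all intervals given are 95% counting intervals that leave out variation between animals and cultures.

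The retained cells numbered 6224, 5326, 4634 and 5416 in WT and 4499, 2750, 1607 and 2489 in CF-labelled libraries, in day order. Library totals ranged from 34735952 to 114585136 UMIs, and the median cell held between 14949 and 23427 UMIs. Markers of duct cells were abundant in every library: 10 of 10 were measured, and their summed level was between 7938 and 10478 CPM (counts scaled to a library total of 1000000 UMIs). PROM1 was the only duct marker lower by at least 2-fold in the CF-labelled library at all 4 days, against all WT cells. The study also counted PROM1 among centroacinar-enriched genes. Acinar markers were near 0: 4 of 11 were in the matrices, and the 1 with at least 30 UMIs, RBPJL, was between 0.0395 and 0.173 CPM. CEL had 18 UMIs in all and PTF1A 0. Of 8 markers of immune and stromal cells 6 were measured, and these summed to between 4.36 and 13.5 CPM in WT and between 12.2 and 28.0 CPM in CF-labelled libraries. The immune marker PTPRC had 4 UMIs in all. CD68, found in macrophages, was at 3.88, 5.48, 6.17 and 9.29 CPM in WT and at 20.9, 7.61, 4.43 and 6.06 CPM in CF-labelled libraries. It was higher under the CF label at day 2 and 5 and lower at day 7 and 9. LYZ, a lysozyme gene, was at 0.428, 4.22, 2.98 and 3.86 CPM in WT. In CF-labelled libraries LYZ was at 0.821, 4.45, 0.547 and 1.72 CPM, higher at day 2 and lower at day 7 and 9. The collagen gene COL1A1 was at 4.49, 0.0839, 18.9 and 13.2 CPM in CF-labelled libraries and at most 0.652 CPM in WT, and COL3A1 had 234 UMIs, all of them in CF-labelled libraries. The part of these markers in the results was not tested. The median share of mitochondrial UMIs in a cell was 9.17%, 6.63%, 10.7% and 10.3% in WT and 7.04%, 6.76%, 5.71% and 5.65% in CF-labelled libraries, and its part in the results was not tested. A pair of libraries shared between 1 and 14 cell barcodes. FOXI1, the defining factor of ionocytes, which are rare cells very rich in CFTR in other epithelia, had 0 UMIs. Of 8 ionocyte markers 3 were measured, ATP6V0B, ATP6V1C2 and HEPACAM2. HEPACAM2 was at 0.175, 1.09, 2.45 and 4.41 CPM in WT and at 0.498, 1.79, 2.88 and 2.62 CPM in CF-labelled libraries. ATP6V1C2 had 5, 41, 57 and 89 UMIs in WT and 3, 2, 0 and 0 in CF-labelled libraries. ATP6V0B was at 189, 275, 291 and 310 CPM in WT and at 203, 199, 175 and 208 CPM in CF-labelled libraries. Whether ionocytes were present was not tested.

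Duct cells secrete a fluid rich in bicarbonate that carries enzymes out of the pancreas and keeps them inactive. CFTR, a cyclic AMP-gated chloride and bicarbonate channel, sits in the apical membrane, where SLC26A6 exchanges chloride for bicarbonate and ANO1 forms a calcium-gated chloride channel. At the basolateral side SLC4A4 brings in sodium with bicarbonate and SLC12A2, known as NKCC1, brings in sodium, potassium and chloride together. CA2, a cytosolic carbonic anhydrase, makes bicarbonate from carbon dioxide and water. Loss of CFTR is the cause of cystic fibrosis, in which the ducts become blocked early in life.

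All 6 genes are annotated as protein coding in the ferret assembly ASM1176430v1.1, in a table that names no chromosome. CFTR runs from 74378912 to 74547852, SLC26A6 from 23005337 to 23015346, and SLC4A4 from 20805587 to 21156321. SLC12A2 runs from 32100340 to 32204633, ANO1 from 13718276 to 13870039, and CA2 from 7927287 to 7943064. The positions of CFTR meet those of a long non-coding RNA, LOC101672280, which had 283 UMIs against 8111 for CFTR. Those of SLC12A2 meet LOC123390745, with 446 UMIs against 112278 for SLC12A2, and LOC106005630, with 10 UMIs. Those of ANO1 meet LOC101671658, with 6 UMIs against 45326. If such pairs lie on 1 sequence and 1 strand, some reads could be counted for either gene. The libraries tag the 3′ ends of RNAs, so levels are compared between samples for each gene and not between genes.

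CFTR, the targeted gene, was measured first. In WT cultures CFTR was at 6.57 CPM (interval 6.11 to 7.06) at day 2, 16.9 CPM (16.1 to 17.7) at day 5, 15.9 CPM (15.0 to 16.7) at day 7 and 29.5 CPM (28.3 to 30.6) at day 9. In the CF-labelled libraries it was at 2.50 CPM (2.20 to 2.83), 8.69 CPM (8.02 to 9.40), 11.1 CPM (10.0 to 12.3) and 11.4 CPM (10.5 to 12.4). CFTR was lower in the CF-labelled library at each of the 4 days, with no overlap of the intervals of a day. The ratio of the CF-labelled to the WT library was 0.381 (0.329 to 0.439) at day 2, 0.514 (0.468 to 0.563) at day 5, 0.701 (0.624 to 0.786) at day 7 and 0.387 (0.353 to 0.424) at day 9. The study describes its knockout animals as free of CFTR mRNA, yet CFTR UMIs were counted in all 4 libraries labelled so, 256, 621, 386 and 570 of them. Where the targeted change lies relative to the 3′ tag is not given in the sources used here, so CFTR counts do not check the labels, and these samples are called CF-labelled throughout. In sums of this kind, fewer cells with a transcript and less of it in each cell cannot be told apart.

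Summed over all cells, CFTR was more abundant at day 9 than at day 2 by nearly the same factor under both labels. The factor was 4.48 (4.13 to 4.87) in WT and 4.56 (3.92 to 5.30) in CF-labelled cultures, and the ratio of these changes was 1.02 (0.859 to 1.20). The steps differed. From day 2 to 5 CFTR was 2.57-fold higher in WT and 3.47-fold higher in CF-labelled cultures. From day 5 to 7 the WT ratio of 0.937 had an interval that held 1 (0.871 to 1.01), while the CF-labelled ratio was 1.28 (1.12 to 1.45). From day 7 to 9 the WT ratio was 1.86 (1.74 to 1.99), and the CF-labelled ratio of 1.03 again had an interval that held 1. Among all 8 libraries ordered by CFTR, WT day 5 and day 7 were not apart beyond their intervals, nor were CF-labelled day 9 and day 7.

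**Figure D1:**
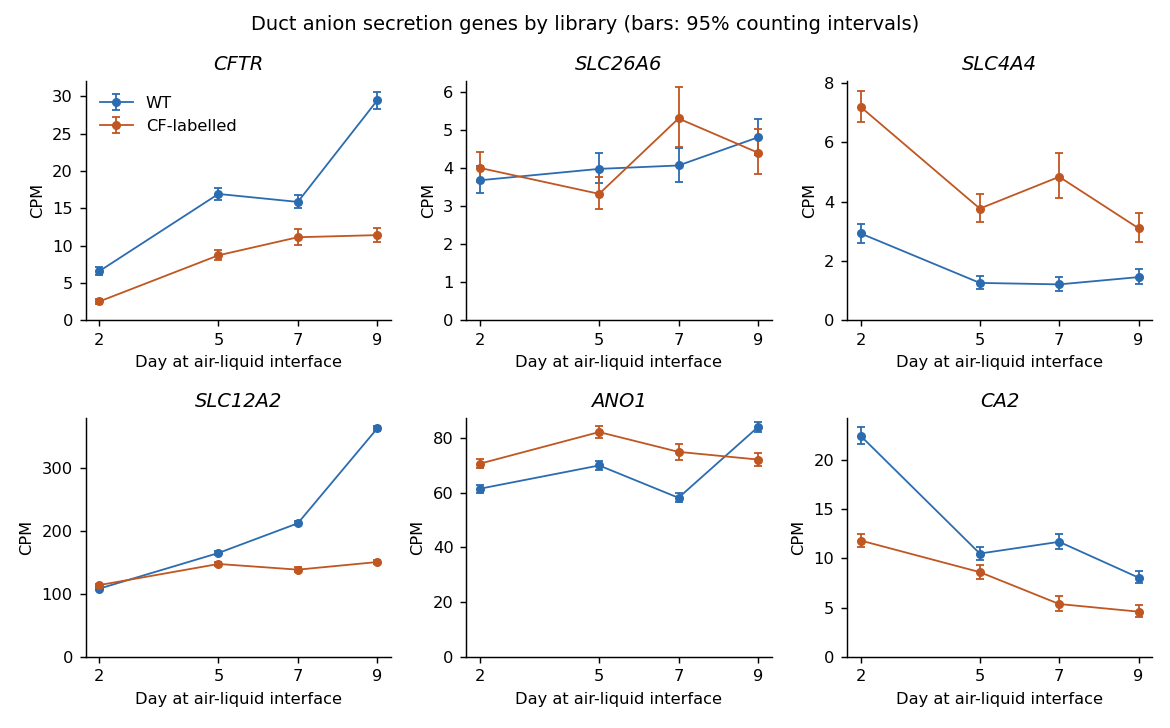
Level of each of the 6 genes in CPM (vertical axis, starting at 0, a different scale in each panel) against day at the air-liquid interface, with 1 point per library, WT in blue and CF-labelled in orange, and bars for the 95% counting interval. CFTR reached 29.5 CPM in WT and 11.4 CPM in CF-labelled cultures at day 9, SLC12A2 reached 364 CPM and 151 CPM, and SLC4A4 was higher in the CF-labelled library at every day.

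SLC26A6, the apical chloride and bicarbonate exchanger, spanned 1.60-fold from the lowest to the highest library. In WT it was at 3.67, 3.97, 4.06 and 4.80 CPM at day 2, 5, 7 and 9, and in CF-labelled cultures at 4.0, 3.32, 5.30 and 4.40 CPM. None of the 7 pairs of neighbours in the order of the 8 libraries differed beyond its counting interval. The CF-labelled to WT ratio was 1.09 (0.947 to 1.25), 0.835 (0.708 to 0.982), 1.30 (1.08 to 1.57) and 0.916 (0.774 to 1.08). It thus lay below 1 at day 5 and above 1 at day 7, and its interval held 1 at day 2 and day 9.

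ANO1, the calcium-gated channel, had the narrowest span of the 6 genes, 1.44-fold. Its levels were 61.4, 69.9, 58.1 and 83.9 CPM in WT and 70.6, 82.1, 74.9 and 72.0 CPM in CF-labelled cultures. The CF-labelled library was higher at day 2, 5 and 7, with ratios of 1.15 (1.11 to 1.19), 1.17 (1.13 to 1.22) and 1.29 (1.23 to 1.35), and lower at day 9, with 0.859 (0.825 to 0.894). From day 2 to 9 ANO1 was 1.37-fold higher in WT, and in CF-labelled cultures the ratio of 1.02 had an interval that held 1.

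SLC4A4, the basolateral importer of sodium and bicarbonate, was the 1 gene of the 6 that was higher over all cells in the CF-labelled library at all 4 days. The sign turned at day 9 in the ductal clusters whose leading genes and depth did not go against their name, which held 51 CF-labelled cells then. Over all cells SLC4A4 was at 2.92, 1.26, 1.21 and 1.45 CPM in WT and at 7.19, 3.76, 4.84 and 3.10 CPM in CF-labelled cultures. The lowest CF-labelled library, that of day 9, and the highest WT library, that of day 2, were not apart beyond their intervals (ratio 1.06, 0.871 to 1.29). The ratios by day were 2.46 (2.16 to 2.81), 3.00 (2.42 to 3.73), 4.01 (3.11 to 5.19) and 2.14 (1.68 to 2.73). Both genotypes were lower at day 9 than at day 2, by ratios of 0.496 (0.400 to 0.612) in WT and 0.431 (0.360 to 0.513) in CF-labelled cultures. These levels rest on 100 to 335 UMIs per WT library and 155 to 736 per CF-labelled library.

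SLC12A2, the basolateral loader of chloride, parted the genotypes late. WT cultures held 109, 165, 213 and 364 CPM in day order, and each step was upward. CF-labelled cultures held 114, 148, 139 and 151 CPM and stayed within a narrow band from day 5 on. The CF-labelled to WT ratio was 1.05 (1.03 to 1.08) at day 2, 0.894 (0.873 to 0.916) at day 5, 0.653 (0.632 to 0.674) at day 7 and 0.415 (0.405 to 0.426) at day 9. From day 2 to 9 SLC12A2 was 3.35-fold higher in WT and 1.32-fold higher in CF-labelled cultures, and the ratio of these changes was 0.395 (0.381 to 0.409). The difference at day 9 was not seen in every class. On the log2(CPM + 1) scale it was -0.028 in cells named ductal and -1.87 in cells named centroacinar. It was -0.67 in the ductal clusters whose leading genes and depth did not go against that name. These clusters held 51 of the 284 CF-labelled cells named ductal at day 9. At earlier days SLC12A2 was higher in CF-labelled than in WT cells named ductal, at 137 against 117 CPM at day 5 and 240 against 136 CPM at day 7. Class names were given separately in each genotype.

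CA2, the cytosolic carbonic anhydrase, was lower over all cells in the CF-labelled library at every day and lower at day 9 than at day 2 in both genotypes. Its levels were 22.4, 10.5, 11.7 and 8.03 CPM in WT and 11.8, 8.59, 5.35 and 4.58 CPM in CF-labelled cultures. The CF-labelled to WT ratios were 0.526 (0.491 to 0.564), 0.820 (0.741 to 0.907), 0.459 (0.390 to 0.537) and 0.570 (0.489 to 0.663). Day 9 over day 2 was 0.358 in WT and 0.388 in CF-labelled cultures, and the ratio of these changes was 1.08 (0.919 to 1.28). In cells named ductal, CA2 at day 9 was higher under the CF label, at 9.31 CPM against 4.77 CPM in WT.

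With 1 library a group, a difference of at least 2-fold on the log2(CPM + 1) scale was counted in place of a test, a scale that understates the differences of genes near 1 CPM. At day 2 this held for 2 of the 6 genes, CFTR at -1.11 and SLC4A4 at 1.06, where 7.42% of the 15921 genes passed. At day 5 it held for SLC4A4 alone, at 1.08, against 6.28% of all genes. At day 7 it held for SLC4A4 alone, at 1.40, against 7.42% of all genes, with CA2 just short of the limit at -0.995. At day 9 it held for CFTR at -1.30 and SLC12A2 at -1.26, against 6.65% of all genes. The CFTR difference of day 9 was -0.70 in cells named ductal, -0.83 with equal weight for each class and -1.77 in cells named centroacinar. None of the 6 passed at all 4 days, in the direction lower in CF-labelled (1.31% of all genes) or higher (0.980%).

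Over time in WT, CFTR and SLC12A2 were at least 2-fold higher at day 9 than at day 2, as were 7.36% of all genes, and CA2 was at least 2-fold lower, as were 4.77%. In CF-labelled cultures CFTR alone was that much higher, against 6.04% of all genes, and CA2 alone that much lower, against 2.50%. SLC4A4 was just short of the limit there, at -0.999. These contrasts use the same libraries as the genotype comparisons at day 2 and day 9. The median difference between genotypes over all genes was -0.00, -0.04, 0.10 and 0.06 on the log2 scale in day order. SLC4A4 at day 9, at 0.74, and ANO1 and SLC26A6 at every day stayed inside the 2-fold limit.

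The direction of the CFTR difference at day 5 and day 7 depended on which of 2 pooled sets of WT clusters was used, and that at day 2 and day 9 did not. SOX2, a transcription factor, was under 10 CPM in 12 of the 41 WT clusters (at most 4.87 CPM), at least 50.6 CPM in the other 29, and at most 1.08 CPM in every CF-labelled cluster. The limit of 10 CPM was set with these values known, and the 2 sets of WT cells are not groups of the study. The SOX2-low clusters held 892, 1801, 1276 and 1510 WT cells in day order. Single clusters differed within a set. SOX2-low cluster 19, with 97.5% of its cells from day 2, held 2.93 CPM of CFTR (1.87 to 4.35), beside 2.50 CPM in the CF-labelled library of that day. SOX2-low cluster 8, with 98.9% of its cells from day 9, held 9.73 CPM (8.17 to 11.5), beside 11.4 CPM. SOX2-low cluster 17, with 67.3% from day 9, held 50.6 CPM.

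CFTR in the SOX2-low WT cells was at 5.31, 4.94, 9.43 and 25.9 CPM, and in the SOX2-high WT cells at 6.76, 27.1, 19.2 and 31.0 CPM. The sets were close at day 2 and at day 9 and far apart at day 5. From day 2 to 5 the SOX2-high cells were 4.01-fold higher (3.65 to 4.39), while the ratio in SOX2-low cells was 0.929 (0.716 to 1.22). From day 7 to 9 CFTR was 2.74-fold higher in SOX2-low cells and 1.61-fold higher in SOX2-high cells. Set against SOX2-low WT cells alone, the CF-labelled library had 0.471 of their CFTR (0.364 to 0.615) at day 2, 1.76 (1.51 to 2.06) at day 5, 1.18 (1.01 to 1.38) at day 7 and 0.441 (0.393 to 0.493) at day 9. CFTR was thus lower than in either WT set at day 2 and day 9 and lay between the WT sets at day 5 and day 7.

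SLC4A4 was higher in the SOX2-low than in the SOX2-high WT cells at every day. It was at 4.83, 1.85, 1.92 and 2.67 CPM in SOX2-low cells and at 2.64, 0.748, 0.828 and 0.916 CPM in SOX2-high cells. The CF-labelled ratio to SOX2-low cells was 1.49 (1.17 to 1.93), 2.03 (1.59 to 2.62), 2.52 (1.85 to 3.48) and 1.16 (0.868 to 1.56), smaller than the ratio to all WT cells at each day, and its interval held 1 at day 9.

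SLC12A2 was lower in the CF-labelled library than in either WT set at day 7 and day 9. Its ratio to SOX2-low cells was 0.942 (0.896 to 0.991), 1.01 (0.981 to 1.04), 0.708 (0.681 to 0.736) and 0.451 (0.437 to 0.465), so that at day 2 it lay below 1 where the ratio to all WT cells lay above, and at day 5 its interval held 1. Its level at day 9 was 335 CPM in SOX2-low and 376 CPM in SOX2-high cells. CA2 was at 8.65, 12.5, 10.8 and 5.73 CPM in SOX2-low cells and at 24.4, 8.76, 12.1 and 9.04 CPM in SOX2-high cells. Its ratio to SOX2-low cells was above 1 at day 2, at 1.36 (1.14 to 1.65), and below 1 at the later days.

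**Figure D2:**
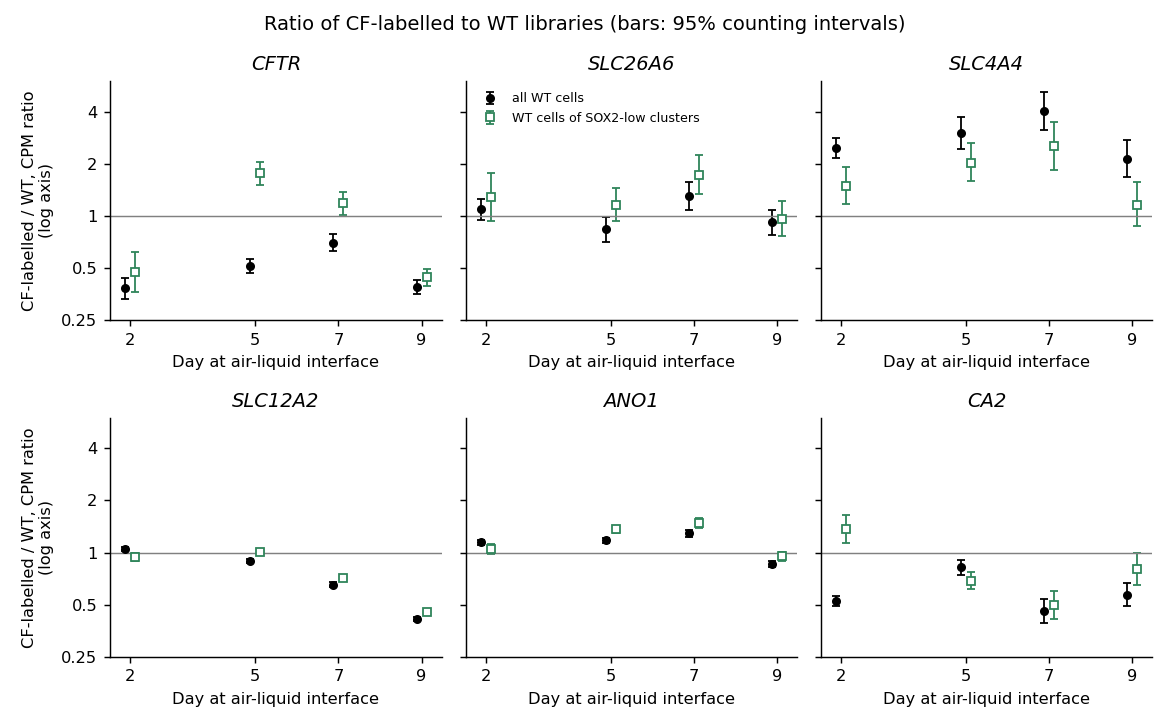
Ratio of the CF-labelled to the WT library (vertical axis, log scale, 1 marked by a line) against day, for each of the 6 genes, with 95% counting intervals. Filled black circles use all WT cells and open green squares WT cells of SOX2-low clusters alone. The CFTR ratio at day 5 is 0.514 against all WT cells and 1.76 against SOX2-low cells, while the SLC12A2 ratio at day 9 is 0.415 and 0.451.

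The authors had given each cluster 1 of 6 class names. The leading genes or depth of 13 of the 71 clusters went against their name, so the classes are described within each genotype, in classes of at least 50 cells and by the deposited name, and differences between genotypes inside a class are given only as alternatives to those over all cells. A cluster went against its name where markers of another class outnumbered its own among its 10 leading genes. A shallow cluster with no own marker did so too. Many other clusters had no marker of any class there, so their names were not borne out either. Cells that keep their class name may still differ between days. From day 5 on in WT, CFTR was highest in centroacinar cells, which link ducts to acini, at 36.5 CPM at day 5, 23.1 CPM at day 7 and 35.7 CPM at day 9. WT ductal cells held 6.65, 13.2, 13.1 and 24.8 CPM and WT centroacinar progenitors 9.68, 18.5, 17.5 and 24.6 CPM. The ratio of centroacinar to ductal cells was 2.77 (2.47 to 3.11) at day 5 and 1.44 (1.32 to 1.57) at day 9. WT cells of day 2 that were named acinar and proliferating acinar held 3.09 and 4.61 CPM, in libraries where acinar enzymes were near 0.

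In CF-labelled cultures centroacinar cells stood at the other end of the order. Among the 3 largest classes CFTR was highest in centroacinar progenitors, at 4.37, 19.1, 22.4 and 21.8 CPM, and lowest in centroacinar cells, at 1.29, 4.93, 6.97 and 9.74 CPM. Ductal cells lay between, at 2.38, 7.63, 13.1 and 14.8 CPM. Of these ductal cells, 88 of 176 at day 7 and 51 of 284 at day 9 lay in clusters that did not go against that name. When each cell was given equal weight, centroacinar and ductal cells of day 7 were level, at 12.1 and 12.0 CPM, and progenitors stayed above both. CF-labelled centroacinar cluster 13, with 72.0% of its 371 cells from day 7, had a median of 1018 UMIs per cell and 6 CFTR UMIs in all. The part of such shallow cells in the equal-weight value was not tested. Progenitors held 2.24-fold (1.77 to 2.82) the CFTR of centroacinar cells at day 9. Centroacinar cells made up 78.6% of the CF-labelled cells and 43.6% of the WT cells at day 9, and progenitors 9.88% and 16.6%. The part of these class shares in the difference between genotypes was not tested, because the classes were named separately in each genotype.

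SLC12A2 was higher at day 9 than at its first described day within the ductal, progenitor and centroacinar classes of both genotypes. WT proliferating ductal cells, described at day 5 and day 7 alone, held 148 and 140 CPM, with an interval of the ratio that held 1. In WT it went from 99.7 to 235 CPM in ductal cells, from 177 to 366 CPM in progenitors and, from day 5, from 228 to 481 CPM in centroacinar cells. In CF-labelled cultures it went from 117 to 231 CPM in ductal cells and from 64.7 to 131 CPM in centroacinar cells, factors of 1.98 and 2.02. Progenitors of that label went from 168 to 220 CPM, a factor of 1.31. The share of centroacinar cells in CF-labelled cultures was 25.1% at day 2 and 78.6% at day 9, and its part in the factor of 1.32 over all cells was not tested.

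SLC4A4 in CF-labelled cultures was highest in the progenitors. They had 10.4, 7.44, 10.8 and 13.1 CPM, while centroacinar cells had 6.04, 2.48, 1.68 and 2.01 CPM, and the ratio of the classes at day 9 was 6.55 (4.56 to 9.34). In WT the order was different: progenitors held 0.785 CPM at day 2 against 3.21 CPM in ductal cells, a ratio of 0.244 (0.124 to 0.434). CA2 in WT was highest in acinar-named cells, at 29.9 CPM at day 2, and at day 9 it was 15.8 CPM in progenitors against 4.77 CPM in ductal cells, a ratio of 3.31 (2.69 to 4.08). WT ductal cells alone went from 21.9 CPM of CA2 at day 2 to 4.77 CPM at day 9, while progenitors went from 17.8 to 15.8 CPM, with an interval of the ratio that held 1.

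**Figure D3:**
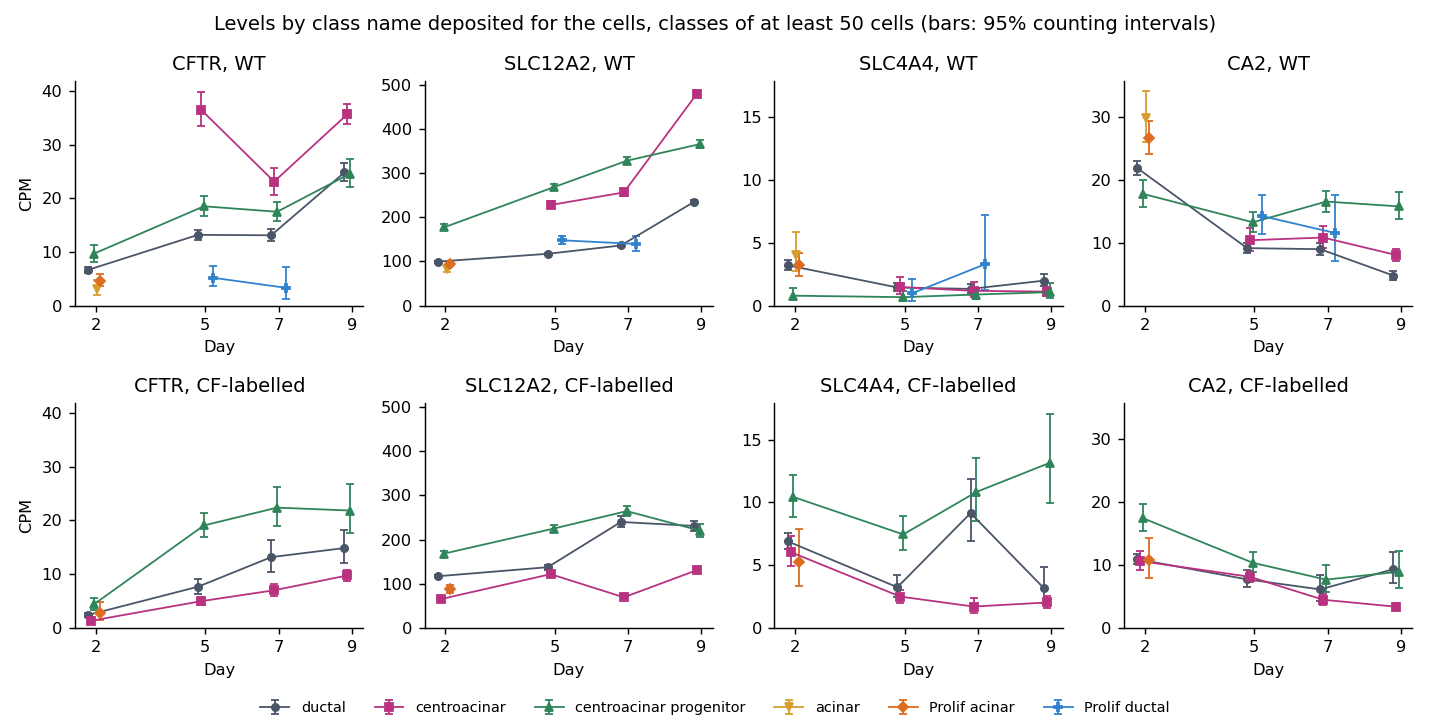
Level in CPM (vertical axis from 0) against day for CFTR, SLC12A2, SLC4A4 and CA2, in WT (upper row) and CF-labelled cultures (lower row), with a line for each class name deposited for the cells and 95% counting intervals; only classes of at least 50 cells on a day are drawn. At day 9 CFTR is highest in centroacinar cells in WT (35.7 CPM) and lowest in them in CF-labelled cultures (9.74 CPM), and SLC4A4 at day 9 reaches 13.1 CPM in CF-labelled progenitors.

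Clusters gave a finer view. In the 39 WT clusters of at least 50 cells, CFTR ran from 2.68 CPM in cluster 34 to 50.6 CPM in cluster 17, with a median of 16.1 CPM. In the 29 CF-labelled clusters it ran from 1.23 CPM in cluster 1 to 44.2 CPM in cluster 27, with a median of 4.74 CPM. CF-labelled cluster 27 was shallow, with a median of 4718 UMIs per cell and 17.4% mitochondrial UMIs, and among clusters with a median of at least 5000 UMIs the highest CF-labelled value was 24.9 CPM in cluster 17. Whether depth or mitochondrial share bears on CFTR there was not tested.

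CFTR, SLC12A2 and ANO1 peaked in the same WT clusters. Cluster 17, a SOX2-low ductal cluster whose leading genes are the secreted trefoil factors TFF2 and TFF1 and the secretory protein BPIFB1, held 50.6 CPM of CFTR, 721 CPM of SLC12A2 and 139 CPM of ANO1. It also had the highest SLC4A4 of any WT cluster, 6.15 CPM (4.70 to 7.90), and the lowest SLC26A6, 1.51 CPM (0.846 to 2.49). Centroacinar cluster 16, led among others by PIGR, the carrier of secretory antibodies, and TRPV6, a calcium channel, held 46.4 CPM of CFTR, 736 CPM of SLC12A2 and 173 CPM of ANO1, but 6.10 CPM of SLC26A6 and 1.68 CPM of SLC4A4. Their median mitochondrial share was 14.2% and 14.3%, above the 6.63% to 10.7% of the WT library medians, and its part in the levels was not tested.

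CF-labelled cultures had a counterpart in cluster 17 of their own numbering, a progenitor cluster led by the mucin MUC5AC, LTF and OLFM4. It held 24.9 CPM of CFTR, 269 CPM of SLC12A2, 142 CPM of ANO1 and 11.7 CPM of SLC4A4, the last being the highest in any CF-labelled cluster of at least 50 cells. At the other end, centroacinar cluster 3, led by the matrix genes SPP1 and SPARC, held 8.30 CPM of SLC26A6, 44.9 CPM of SLC12A2 and 1.15 CPM of SLC4A4. CF-labelled cluster 11, whose leading genes include the stromal genes ACTA2, COL1A1 and COL1A2, had 43.4 CPM of SLC12A2, the lowest of all CF-labelled clusters described, 5.32 CPM of SLC26A6 and 1.18 CPM of SLC4A4. Whether stromal cells are present in it was not tested.

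Across clusters SLC12A2 and ANO1 went together, with a Pearson correlation of log2(CPM + 1) of 0.69 over 39 WT clusters and 0.87 over 29 CF-labelled clusters. CFTR went with SLC12A2 at 0.50 and 0.57 and with ANO1 at 0.56 and 0.57. SLC26A6 went against SLC12A2, at -0.25 in WT and -0.75 in CF-labelled clusters. Between SLC26A6 and ANO1 the values were -0.09 and -0.73. CFTR and SLC26A6 stood at 0.21 in WT and -0.23 in CF-labelled clusters. SLC4A4 went with ANO1 at 0.23 and 0.69, with SLC12A2 at 0.12 and 0.56 and with CFTR at -0.40 and 0.01. CFTR and CA2 stood at -0.49 in WT and -0.14 in CF-labelled clusters. These are descriptions without a test, since clusters of a genotype share libraries and were built from all genes.

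Inside single libraries the correlations kept their sign for some pairs and not for others. Cells of 1 library alone gave SLC12A2 and ANO1 correlations of 0.23 to 0.86 in WT and 0.77 to 0.95 in CF-labelled libraries, and SLC26A6 and SLC12A2 correlations of -0.55 to -0.37 and -0.86 to -0.67. For SLC26A6 and ANO1 they were -0.33 to 0.05 in WT and -0.79 to -0.65 in CF-labelled libraries, and for CFTR and SLC26A6 -0.26 to 0.59 and -0.79 to 0.10. CFTR and CA2 gave -0.40 to 0.19 in WT and 0.24 to 0.57 in CF-labelled libraries, opposite in sign to the value over all CF-labelled clusters. CFTR and SLC4A4 gave -0.78 to 0.06 and 0.24 to 0.87. The median mitochondrial share of a cluster also went with SLC12A2, at 0.74 in WT and 0.46 in CF-labelled clusters, with ANO1 at 0.61 and 0.37, and with CFTR at 0.44 and 0.34. Its part in the correlations between genes was not tested.

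**Figure D4:**
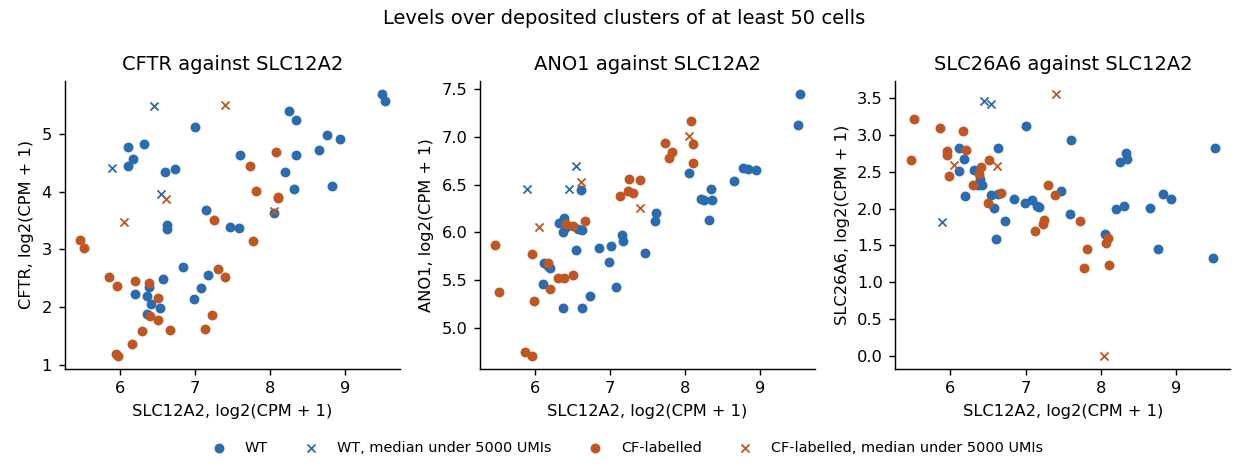
Each point is a cluster of at least 50 cells, WT in blue and CF-labelled in orange, with crosses for clusters whose median cell held under 5000 UMIs. The horizontal axis is SLC12A2 and the vertical axis CFTR (left), ANO1 (middle) or SLC26A6 (right), all as log2(CPM + 1). ANO1 is higher where SLC12A2 is higher (correlations of 0.69 and 0.87), and SLC26A6 is lower (-0.25 and -0.75).

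The genes whose cluster pattern was most like each member were ranked among 9970 genes (9971 for SLC4A4) by the smaller of the WT and CF-labelled correlations. For CFTR they were APLP2 (0.85), SANBR (0.84) and EXOC6 (0.83). For SLC26A6 they were SIK1 (0.76), UNKL (0.71) and KLHL7 (0.71), and for SLC4A4 E2F4 (0.72), SLC16A7 (0.66) and SLC25A39 (0.65). SLC12A2 was matched most closely by ST6GALNAC1 (0.93), GPAT3 (0.92) and LOC106005447 (0.92). ANO1 was matched by AP1B1 (0.83), TMEM43 (0.81) and ARHGAP27 (0.80), and CA2 by LOC101672166 (0.75), SCARB2 (0.72) and HLF (0.72). No other member was among the 3 genes most like a member.

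At the level of cells, CFTR was thinly spread. To set cells of unlike depth side by side, 3000 UMIs were drawn from each, and the 39 to 411 cells of a library that had fewer were left out. A CFTR UMI was then present in 1.82%, 5.04%, 4.91% and 8.84% of WT cells and in 0.740%, 2.51%, 3.26% and 3.75% of CF-labelled cells. At full depth CFTR was detected in 10.6%, 24.1%, 22.0% and 32.1% of WT cells, and CF-labelled cells had it in 5.47%, 17.5%, 17.7% and 18.0%. No class of these cultures is known to lack CFTR, so the background from free RNA could not be measured. SLC12A2 was present in 25.9% of thinned WT cells at day 2 and 55.6% at day 9, and in 26.6% and 29.7% of thinned CF-labelled cells.

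Cells very rich in CFTR were few. At least 5 CFTR UMIs were found in 19 of the 5416 WT cells of day 9, with 10 as the most in a cell, and in at most 6 cells of any other library. For SLC12A2 the same number or more was found in 2564 WT cells of day 9, or 47.3%, and in 621 CF-labelled cells, or 24.9%. No cell of the 32945 had 5 UMIs of SLC26A6, which allows a share of up to 0.00911% when the limit is set at 3 cells.

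For CFTR, SLC12A2 and ANO1, detection of 2 of these genes in the same thinned cell was 1.02 to 1.18 times the number expected from each cluster's own shares. CFTR and SLC12A2 UMIs met in 537 WT cells against 520 expected, and SLC12A2 and ANO1 in 1778 against 1715. In CF-labelled cells SLC12A2 and ANO1 met in 665 against 649 expected, and CFTR and ANO1 in 58 against 49.1. When the expected number was taken from the library in place of the cluster, the ratios were larger, 1.14 and 1.16 for the WT pairs and 1.21 and 1.40 for the CF-labelled pairs. Among the other pairs, SLC12A2 and CA2 met in 300 WT cells against 302 expected. Some rare pairs lay further from the expected number: in CF-labelled cells SLC26A6 and ANO1 met in 11 cells against 20.2 expected, SLC4A4 and ANO1 in 40 against 28.3, and CFTR and CA2 in 10 against 5.68. Such sparse counts give no finding on single pairs.

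Along the lineages that the authors had fitted by pseudotime, an ordering of cells by likeness, the first and the last of 5 equal bins were compared in 15 WT and 13 CF-labelled lineages, which share many cells. CFTR was higher in the last bin, beyond its counting interval, in 7 WT and 8 CF-labelled lineages and lower in 0. In many WT lineages it peaked before the end: the highest bin was the third in 6 of the 15, and in lineage 4 CFTR was at 5.35 CPM in the first bin, 35.3 CPM in the fourth and 4.78 CPM in the last. SLC12A2 was higher in 12 and 9, and lower in 0 and 1. SLC4A4 was lower in 10 and 8 and higher in 0, and CA2 was lower in 11 and 7 and higher in 0 and 1. ANO1 went both ways, higher in 9 and 7 and lower in 3 and 4, and SLC26A6 was higher in 2 WT lineages and lower in 5 CF-labelled ones.

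The largest ratio of the last to the first bin for CFTR was in WT lineage 7, where it went from 3.89 CPM in the first bin to 34.7 CPM in the last, a ratio of 8.92 (7.22 to 11.1). SLC12A2 went from 77.7 to 596 CPM there and ANO1 from 54.0 to 129 CPM. In CF-labelled lineage 2, CFTR went from 1.56 to 13.5 CPM, a ratio of 8.67 (5.93 to 13.2), with SLC12A2 from 62.2 to 262 CPM and SLC26A6 from 5.40 to 1.74 CPM. Along WT lineage 7, SLC26A6 stood at 3.25 and 4.19 CPM, with an interval of the ratio that held 1.

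The wider pathway was described by 7 lists with 59 names: apical exchangers and chloride channels, basolateral ion loaders, carbonic anhydrases, potassium channels, water channels, receptors that start secretion, and regulators of CFTR and the transporters. Of these, 48 genes were measured. Another 10 had under 30 UMIs, among them the secretin receptor SCTR, with 10 UMIs in all, the water channels AQP1 and AQP5, the exchangers SLC26A3 and SLC26A4, and the apical carbonic anhydrase CA4. At least 2-fold differences between genotypes were seen in 6, 5, 7 and 9 of the 48 at day 2, 5, 7 and 9, or 12.5%, 10.4%, 14.6% and 18.8%, beside 7.42%, 6.28%, 7.42% and 6.65% of all genes. The median over the 48 genes of the mean difference over days was 0.08 on the log2 scale, and 0.02 over all genes.

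On the log2(CPM + 1) scale, 2 of the 48 genes (4.17%) were at least 2-fold lower in CF-labelled libraries at all 4 days, beside 1.31% of all genes. On that scale 1 gene (2.08%) was at least 2-fold higher at all 4 days, beside 0.980%. KCNE3, the subunit that keeps the basolateral potassium channel KCNQ1 open in secretory epithelia, was at 48.6, 30.2, 39.9 and 45.0 CPM in WT and at 4.89, 5.25, 6.28 and 4.76 CPM in CF-labelled cultures, a ratio of 0.100 to 0.174. KCNQ1 itself was at 16.8, 21.8, 22.8 and 25.8 CPM in WT and at 26.1, 19.7, 18.1 and 20.9 CPM in CF-labelled cultures, with no 2-fold difference. STK39, the kinase known as SPAK that activates SLC12A2 by phosphorylation, was at 18.5, 20.6, 16.0 and 20.6 CPM in WT and at 2.26, 2.55, 2.56 and 3.14 CPM in CF-labelled cultures. Its relative OXSR1, which acts on the same transporters, was at 30.2, 47.0, 38.7 and 35.9 CPM in WT and at 21.3, 26.7, 35.2 and 37.0 CPM in CF-labelled cultures. CA9, a carbonic anhydrase that faces the outside of the cell, was the 1 gene at least 2-fold higher at all 4 days. It was at 1.68, 3.55, 3.05 and 2.35 CPM in WT and 8.41, 9.84, 13.8 and 12.7 CPM in CF-labelled cultures. Genes near 1 CPM or below can miss the limit on the log2(CPM + 1) scale. CHRM3 had 54, 83, 85 and 241 UMIs in WT and 2, 1, 2 and 1 in CF-labelled libraries. SLC26A9 had 7, 7, 4 and 5 UMIs in WT and 75, 21, 12 and 10 in CF-labelled libraries. These 2 genes were chosen after their values were seen.

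Within WT, KCNE3 and STK39 were lower and CA9 was higher in SOX2-low than in SOX2-high cells, though single clusters of the sets overlapped for STK39 and CA9. KCNE3 was at 2.93, 1.29, 2.20 and 3.18 CPM in SOX2-low WT cells and between 54.6 and 63.4 CPM in SOX2-high cells, and the CF-labelled library held 1.67, 4.06, 2.85 and 1.50 times the SOX2-low level. STK39 was at 3.00, 2.91, 2.94 and 4.80 CPM in SOX2-low cells and at 20.8, 35.5, 22.9 and 27.6 CPM in SOX2-high cells. The CF-labelled ratio of STK39 to SOX2-low cells was 0.754, 0.875, 0.873 and 0.654. Its interval held 1 at day 2, 5 and 7 and left it out at day 9 (0.513 to 0.834). CA9 was at 11.5, 7.50, 8.25 and 7.20 CPM in SOX2-low cells and between 0.201 and 0.313 CPM in SOX2-high cells. Its CF-labelled ratio to SOX2-low cells was 0.731 (0.619 to 0.868) at day 2, below 1, and 1.31, 1.68 and 1.76 at the later days. Set against SOX2-low cells, 0 of the 48 genes were at least 2-fold lower or higher at all 4 days, where 0.477% of all genes were lower and 0.829% higher; at such shares a count of 0 says nothing particular about the list.

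**Figure D5:**
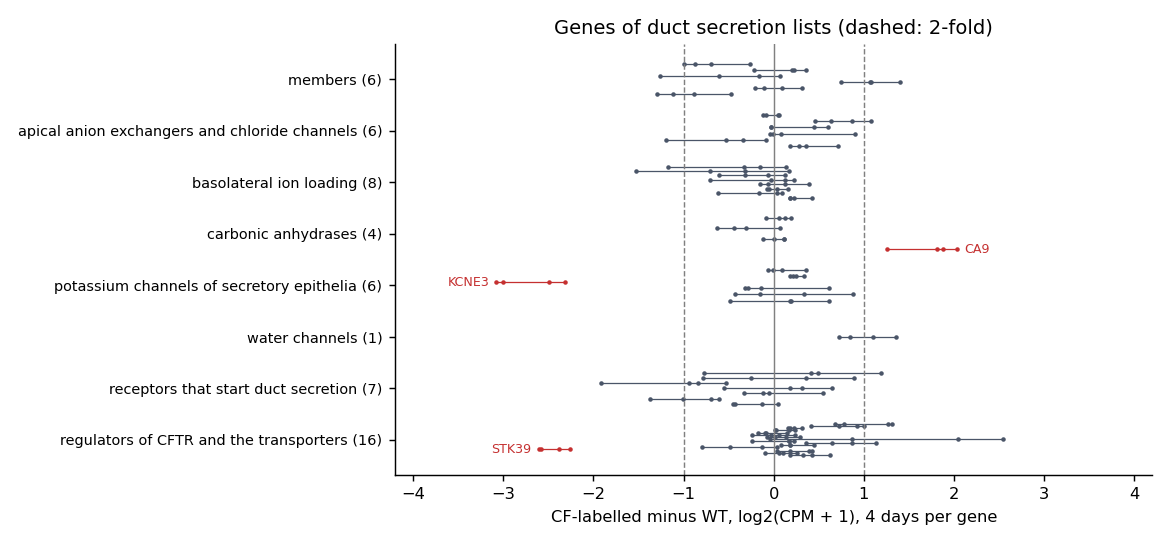
Difference between CF-labelled and WT libraries on the log2(CPM + 1) scale (horizontal axis) for the 6 members and the 48 measured genes of 7 duct secretion lists (rows, with the number measured), with 4 dots per gene, 1 for each day, joined by a line and dashed lines at 2-fold. KCNE3 and STK39 (red, left) and CA9 (red, right) lie past 2-fold at all 4 days, and none of the 6 members does.

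Among other pathway genes, single days stood out. PDZK1, a scaffold for apical transporters, was at 0.192, 0.336, 0.350 and 1.07 CPM in WT and at 0.156, 1.44, 6.85 and 7.52 CPM in CF-labelled cultures, so the genotypes were close at day 2 and apart from day 5 on. SLC12A7, a potassium and chloride exporter of the SLC12 family, was at 12.5, 22.1, 21.2 and 54.9 CPM in WT and at 14.2, 13.1, 16.7 and 18.4 CPM in CF-labelled cultures. AQP3, the 1 measured water channel, was higher at all 4 days, at ratios of 1.79, 2.58, 1.66 and 2.16. These 3 genes and KCNQ1 were chosen after their values were seen.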

How the data were processed

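Per the labels, single cells of each culture were captured with 10x 3′ chemistry, and the submitters' processing notes name Cell Ranger 5.0.1, R 4.1.2 and Seurat. The authors deposited UMI counts of all barcodes per library and, per retained cell, its cluster, class, percent of mitochondrial UMIs and pseudotime score along each lineage. Reads had been aligned to ASM1176430v1.1 with an improved annotation, and gene positions here come from a RefSeq table of that assembly. The authors had dropped cells with fewer than 200 genes or with over 20% mitochondrial reads, and doublets by DoubletFinder, and the retained cells equal in number those that the study used.

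Counts of retained cells were summed by library, class, cluster or pseudotime bin (5 bins) and scaled to CPM, without filtering genes from the totals. Levels carry exact Poisson intervals, ratios exact conditional binomial intervals and shares of cells exact Clopper-Pearson intervals, all at 95% and for counting error only. For a count of 0, the limit was set at 3 counts. PCR errors and variation between cultures are outside them. Differences were taken on the log2(CPM + 1) scale over genes of at least 30 UMIs. No further doublet caller was run. The members, lists and the SOX2 limit were chosen with earlier results of these data known. Named pathway genes were those past 2-fold in 1 direction at all 4 days, at most 3 per list and direction, plus genes tied directly to a member. PDZK1, SLC12A7, AQP3, KCNQ1, CHRM3 and SLC26A9 were named outside this rule, after their values were seen. Genes most like a member were the 3 with the highest smaller correlation of WT and CF-labelled clusters, among genes of at least 10 CPM in a cluster of each genotype.

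The alternatives were TMM scaling (edgeR 4.0.16) and DESeq2 1.42.0 size factors on the counts, a pseudocount of 5, other cells, clusters or classes, and other thinning (6000 UMIs or none). Neither package was used for a test. The scripts, checked on simulated data, used Python 3.11.15 with numpy 2.4.6, scipy 1.17.1, pandas 2.3.3 and matplotlib 3.10.9, and R 4.3.3.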

Additional observations from a re-analysis of the deposited data

Results flagged for a closer look

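The ratio of the CF-labelled to the WT library lay on different sides of 1 at different days for 3 of the 6 genes, beyond the counting interval on both sides. For SLC26A6 it was 1.30 at day 7 and 0.835 at day 5. For SLC12A2 it was 1.05 at day 2 and 0.415 at day 9. For ANO1 it was 1.29 at day 7 and 0.859 at day 9. With 1 library per genotype and day, these differences between days were not tested.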

How the results depend on the processing

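Each value was computed under other settings, 1 at a time. Of 276 differences between genotypes 27 changed sign, 24 of them where the interval over all cells left out a ratio of 1, and 3, all for SLC26A6, where it held 1. Of 126 changes between days 7 changed sign, for SLC26A6 and ANO1, all where that interval held 1. Apart from the 24, 155 differences stayed inside their counting interval and 97 left it. Of the changes 69 stayed inside and 57 left it. Differences below are CF-labelled minus WT, or day 9 minus day 2, on the log2(CPM + 1) scale. Counts are of the 6 members, or of the pathway genes where named, past 2-fold. The settings of clusters with a median of at least 5000 UMIs and of clusters that did not go against their class name were chosen after seeing the data.

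With DESeq2 size factors the WT change of CFTR was 1.87. Under DESeq2 and TMM scaling alike, 2 members passed at day 7 and 2 were lower over time in CF-labelled cultures. That change shifted by -0.12 in the median of all genes under both. Clusters of at least 5000 UMIs also gave 2 and 2, and cells of at least 3000 UMIs gave 2 lower over time in CF-labelled cultures. All barcodes gave 0 at day 5. Genes of at least 10 CPM gave 1, 0 and 0 at day 2, 5 and 7. The ratio of CFTR-positive shares was 0.726 at day 5 and 0.562 at day 9 without thinning, and 0.318 at day 9 with 6000 UMIs.

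With a pseudocount of 5, CFTR stood at -0.63, -0.68 and -1.07 at day 2, 5 and 9, and its change over time was 1.57 in WT and 1.13 in CF-labelled cultures. Members past 2-fold were then 0 at day 2, 5 and 7 and 0 lower over time in CF-labelled cultures, and 0 pathway genes were higher at all 4 days.

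Against SOX2-low WT cells CFTR stood at -0.85, 0.71, 0.22 and -1.12, so its sign turned at day 5 and 7. The sign also turned for CA2 at day 2 (0.41), SLC12A2 at day 2 (-0.085) and 5 (0.017) and SLC26A6 at day 5 (0.16). Members past 2-fold were 0 at day 2, 5 and 7 and 0 lower over time in WT, and 0 pathway genes were higher and 0 lower at all 4 days.

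In cells named centroacinar CFTR stood at -2.66, -1.60 and -1.77 at day 5, 7 and 9, with a CF-labelled change of 2.23, and ANO1 turned sign at day 5 (-0.46) and 7 (-0.59). There 3 members passed at day 7, and 2 were higher and 2 lower over time in CF-labelled cultures. The clusters that did not go against the name gave -2.73, -1.85 and -1.82 for CFTR, a change of 2.20, -0.44 and -0.61 for ANO1, and again 3, 2 and 2 members.

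In cells named ductal CFTR stood at -0.72, 0.0054 and -0.70 at day 5, 7 and 9, turning sign at day 7, with changes of 1.75 in WT and 2.23 in CF-labelled cultures. Signs turned for ANO1 at day 9 (0.68), CA2 at day 9 (0.84), SLC12A2 at day 5 (0.22) and 7 (0.81) and SLC26A6 at day 7 (-0.95), and the 2-fold difference of SLC12A2 at day 9 was lost (-0.028). Members past 2-fold were 1, 0, 2 and 1 by day and 0 lower over time in CF-labelled cultures, with 0 pathway genes higher and 1 lower at all 4 days. The clusters that did not go against the name held 499, 88 and 51 CF-labelled cells at day 5, 7 and 9, against 2929, 2232 and 2001 WT cells. They gave -0.65, -0.15 and -0.21 for CFTR, with changes of 1.74 and 2.67. There the signs turned for ANO1 (0.23), CA2 (0.40) and SLC4A4 (-0.17) at day 9, SLC12A2 at day 5 (0.17) and 7 (0.18) and SLC26A6 at day 7 (-0.77), with 1, 0 and 0 members at day 2, 5 and 9 and 0 pathway genes higher and 1 lower.

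With equal weight for each class CFTR stood at -1.04 at day 5 and -0.83 at day 9, with changes of 1.49 in WT and 2.16 in CF-labelled cultures, and signs turned for ANO1 at day 9 (0.18) and SLC26A6 at day 7 (-0.029). Members past 2-fold were 1, 2 and 1 at day 2, 5 and 9, 1 higher at all 4 days, and 0 lower over time in CF-labelled cultures and in WT. The cause of these moves was not tested. Comparisons between genotypes by class name rest on names given separately in each genotype.

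No paired analysis was possible because the labels give no replicate number and each genotype and day had 1 library. A fit of genotype with day as a term, which would take the days as replicates, was not run. No library was left out, since its group would then be empty, and every interval covers counting error only. SLC26A6 and SLC4A4 had the fewest UMIs, 2617 and 2013 in all, which limits their class and cluster values most.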

Other observations

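Barcodes that the authors had not retained carried CFTR at a higher CPM than retained cells in every library. CFTR in them was at 8.18, 29.2, 26.8 and 43.1 CPM in WT and at 4.04, 15.4, 18.8 and 16.4 CPM in CF-labelled libraries, in day order. WT was again above CF-labelled at each day. SLC12A2 and ANO1 were likewise higher in these barcodes than in retained cells in all 8 libraries, for example at 511 and 106 CPM in WT of day 9.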
